A study of Mus musculus with 12 samples.

Results

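The genes of cholesterol and fatty acid synthesis were examined as 30 members: 18 enzymes of the sterol pathway, 4 sterol regulators and carriers (Srebf1, Srebf2, Insig1 and Stard4) and 8 enzymes of fatty acid synthesis and desaturation. A member was taken as measured where a probe set of the array carried its symbol and no other, and where a gene had several, the brightest of them by mean log2 intensity stood for it. This gave 29 members among 10817 genes tested, and all 29 passed the filter on dim probe sets, which asked for a log2 intensity above 4 (16 intensity units) on at least 3 arrays. Acat2, an acetoacetyl-CoA thiolase, was not analysed here.

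RNA came from leukaemic stem cells of 2 mouse leukaemias on 12 arrays, 1 per sample and 3 per group. De novo acute myeloid leukaemia (AML) was raised by infecting stem and progenitor cells with MLL-AF9 and transplanting them, and its cells were sorted as Lin-Sca1-ckit+. Blast crisis chronic myeloid leukaemia (bcCML) was raised in the same way with BCR-ABL and NUP98-HOXA9, and its cells were sorted as Lin- alone. In each leukaemia the infected cells came from wild-type mice or from Msi2 Gt/Gt mice, which carry a gene trap in Msi2, the gene of the RNA-binding protein Musashi2. All samples are labelled with the strain B6;CB-Msi2Gt(pU-21T)2Imeg, and the labels give no age and no drug treatment. The titles call the samples of a group biological replicates without naming animals, so p values measure only the spread between these samples. The 2 leukaemias differ in oncogene and in sort together, so these cannot be told apart in any comparison between them.

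Cells make cholesterol from acetyl-CoA through mevalonate, isoprenoid units, squalene and lanosterol. Fatty acids are built from acetyl-CoA by ATP citrate lyase, acetyl-CoA carboxylase and fatty acid synthase, then lengthened by elongases and given double bonds by desaturases. Both branches are driven by the SREBP transcription factors, which are held in the endoplasmic reticulum by Scap and Insig proteins when sterols are plentiful. SREBP-2, from Srebf2, acts mainly on sterol genes and SREBP-1, from Srebf1, mainly on fatty acid genes.

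SREBPs bind a sterol response element, often beside a CCAAT box bound by NF-Y and a GC-rich box bound by Sp proteins. RefSeq promoter windows (GRCm38.p6, 250 bases before to 50 after a gene start) were found for 23 of the 30 members. The core TCACNCCA, where N is any base, searched on both strands, lay in the windows of 3 of these 23 (13.0%), against 4.45% of the 8853 tested genes with a window and 4.97% of all 27025 genes. The 3 are shown because they are the only members with a window that held this core. Each is the 250 bases before the gene start, 5′ to 3′ on the gene's strand, with the core (8 letters) and each CCAAT or its reverse complement ATTGG (5 letters) in capitals. Msmo1 lies at chr8:64733579-64733828 on the minus strand, Srebf2 at chr15:82147019-82147268 and Hmgcs1 at chr13:119690101-119690350 on the plus strand.
Msmo1: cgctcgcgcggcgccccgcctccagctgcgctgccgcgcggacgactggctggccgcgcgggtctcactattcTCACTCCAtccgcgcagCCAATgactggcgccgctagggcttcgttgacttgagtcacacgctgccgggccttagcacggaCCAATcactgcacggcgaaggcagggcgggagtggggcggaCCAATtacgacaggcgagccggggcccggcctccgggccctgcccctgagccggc
Srebf2: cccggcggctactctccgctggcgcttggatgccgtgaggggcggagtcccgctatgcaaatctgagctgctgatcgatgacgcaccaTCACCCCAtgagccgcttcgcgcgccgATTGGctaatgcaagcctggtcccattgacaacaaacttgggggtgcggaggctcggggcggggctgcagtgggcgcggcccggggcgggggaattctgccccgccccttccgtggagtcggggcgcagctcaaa
Hmgcs1: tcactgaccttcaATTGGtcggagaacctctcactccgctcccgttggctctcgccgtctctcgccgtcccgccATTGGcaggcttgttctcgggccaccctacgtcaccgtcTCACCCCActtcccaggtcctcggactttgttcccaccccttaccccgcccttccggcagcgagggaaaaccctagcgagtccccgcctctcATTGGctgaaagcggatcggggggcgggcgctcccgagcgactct
The core begins 177 bases before the gene start in Msmo1, 162 in Srebf2 and 137 in Hmgcs1. CCAAT, searched on both strands, was in the windows of 14 of 15 sterol enzymes (93.3%) and 2 of 5 fatty acid enzymes (40%), against 43.1% of tested genes. GGGCGG on either strand was likewise in 14 of 15 sterol enzymes (93.3%) and 2 of 5 fatty acid enzymes (40%), against 68.1% of tested genes. The last letters of the core can be the first letters of a CCAAT box. A match says only that these letters stand in the window.

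Msi2 RNA was lower in the mutant arrays of both leukaemias (a log2 difference of -2.11 in AML, limma adjusted p = 0.0211, and -2.63 in bcCML, adjusted p = 0.0200). AML and bcCML arrays parted along a first principal component holding 76.2% of the variance. AML mutant array 1 stood apart from the other AML arrays on the second component (-58.2, against 1.20 to 19.96), so the main results that use it are also given without it. The 5 stem and progenitor markers measured, Kit among them, were above the filter in every group, and Ly6a, which encodes Sca1, was not analysed here. The cells also differed in marker genes of other lineages. The erythroid markers summed to between 10800 and 22767 units on the bcCML arrays and between 2791 and 4996 on the AML arrays. Tfrc alone averaged 3193 units in wild-type and 4054 in mutant AML. All 6 erythroid markers tested were higher in wild-type bcCML than in wild-type AML. Gata1, Klf1, Epor, Car1 and Ermap passed the filter only through bcCML arrays, so their direction was largely fixed by it. Hba-a1 lay below the filter in every group, and Alas2 passed it on only 1 bcCML array, a wild-type one. Megakaryocyte markers, higher in wild-type bcCML for 6 of 6, summed to between 3888 and 11585 units in bcCML and between 33.95 and 215 in AML. Of these, Ppbp, Itga2b and Gp5 likewise passed the filter only through bcCML arrays. In AML, 7 of the 8 erythroid markers with a probe set, Gata1 and Klf1 among them, lay below the filter on every array. Monocyte and macrophage markers summed to between 39632 and 53777 units in wild-type AML, between 15658 and 75632 in mutant AML and between 1339 and 2357 in bcCML, where Csf1r and Cd14 lay below the filter. Of the T and NK cell markers, Cd3d, Cd3e, Cd3g, Cd4, Cd8a and Cd8b1 lay below the filter on all arrays. Nkg7 did not, with group means from 3167 units in wild-type AML to 9417 in mutant bcCML. Cd2 averaged 56.3 units in wild-type AML and lay below the filter in bcCML, and Gzma passed it on 1 array of each bcCML group. Between the wild-type leukaemias Nkg7 was called higher and Cd2 lower in bcCML. Cd2 passed the filter only through AML arrays, so its direction was largely fixed by the filter. The proliferation markers had overlapping sums in all 4 groups.

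**Figure D1:**
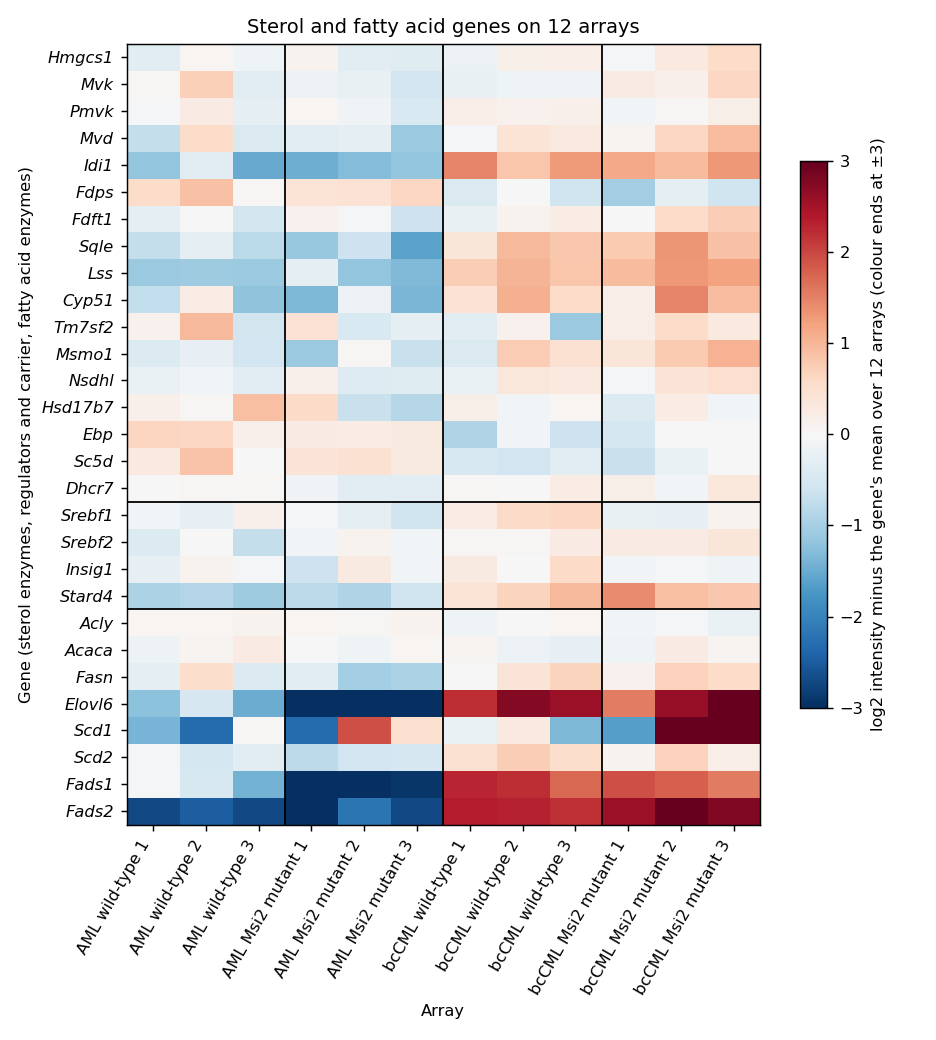
Log2 intensity of the 29 measured members (rows, in pathway order) on the 12 arrays (columns), each as the difference from the gene's own mean. Lines part the 4 groups and the sterol enzymes, regulators and fatty acid enzymes. Fads1, Fads2 and Elovl6 are far higher on bcCML than on AML arrays, and Elovl6 and Fads1 are lowest on the 3 AML mutant arrays.

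In AML, loss of Msi2 went with lower RNA of a fatty acid elongase and a desaturase, and with no called change of any sterol gene. Elovl6, which lengthens palmitate to stearate, and Fads1, the delta-5 desaturase of polyunsaturated fatty acid synthesis, both fell below the filter on every mutant array. They were the only members called in AML, 2 of 29, both lower, where 1.52% of all tested genes were called and 1.14% were called lower. In these bulk samples, fewer cells of a type and less RNA per cell cannot be told apart.

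Elovl6 measured 39.9, 65.7 and 33.1 units on the AML wild-type arrays and 5.77, 7.59 and 5.92 on the mutant arrays. The groups did not overlap, and the mutant arrays were at least 2.77-fold lower, a bound taken from the wild-type mean log2 against the filter level of 16 units. The fitted difference was -2.79 ± 0.38 on the log2 scale (SE, 3 arrays a group, limma adjusted p = 0.00997). The other Elovl6 probe sets that passed the filter pointed the same way without reaching the threshold, at -1.33 ± 0.29 (adjusted p = 0.0619 among all probe sets) and -1.54 ± 0.37 (0.0887). In bcCML, Elovl6 measured 433, 626 and 558 units in wild-type and 272, 569 and 800.3 in mutant arrays, with the mutant range enclosing the wild-type range (-0.10 ± 0.38, adjusted p = 0.990).

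Fads1 measured 75.2, 55.0 and 29.1 units on the AML wild-type arrays and 7.62, 7.60 and 10.3 on the mutant arrays. Again no mutant array reached the lowest wild-type array, and the difference was at least 3.08-fold, with a fitted value of -2.55 ± 0.31 (limma adjusted p = 0.00552). A dimmer Fads1 probe set lay below the filter on all 6 AML arrays and gave -0.40 ± 0.35 (adjusted p = 0.721 among all probe sets). In bcCML the values were 375, 359 and 256 units in wild-type and 297, 269.8 and 229 in mutant arrays, which overlapped (-0.30 ± 0.31, adjusted p = 0.865).

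Both calls held without AML mutant array 1, at -2.72 ± 0.44 for Elovl6 (limma adjusted p = 0.0210) and -2.48 ± 0.36 for Fads1 (0.0149). Both were lost when only the 6 AML arrays were fitted, with adjusted p of 0.115 and 0.153, a fit in which none of the 10817 genes was called. Elovl6 was also lost when 16 units were added before taking log2 (adjusted p = 0.0676). Of 5 stem and progenitor markers tested in the same comparison, 3 estimates were negative and 2 positive (Kit and Myb), and 1 was called, Cd93, which fell (-1.38, adjusted p = 0.0396). The list averaged between 0.10 and 1.13 above its mean over all arrays in wild-type AML and between -1.12 and 0.03 in mutant AML (log2). Of 12 monocyte and macrophage markers, 9 estimates were negative and 3 positive, and 1 was called, Ly86, which fell (-1.43, adjusted p = 0.0372). Granulocyte markers, 1 of 10 called and that one higher, summed to between 129186 and 174228 units in wild-type and between 209955 and 243335 in mutant AML. The part of these cells in the Elovl6 and Fads1 values was not tested.

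**Figure D2:**
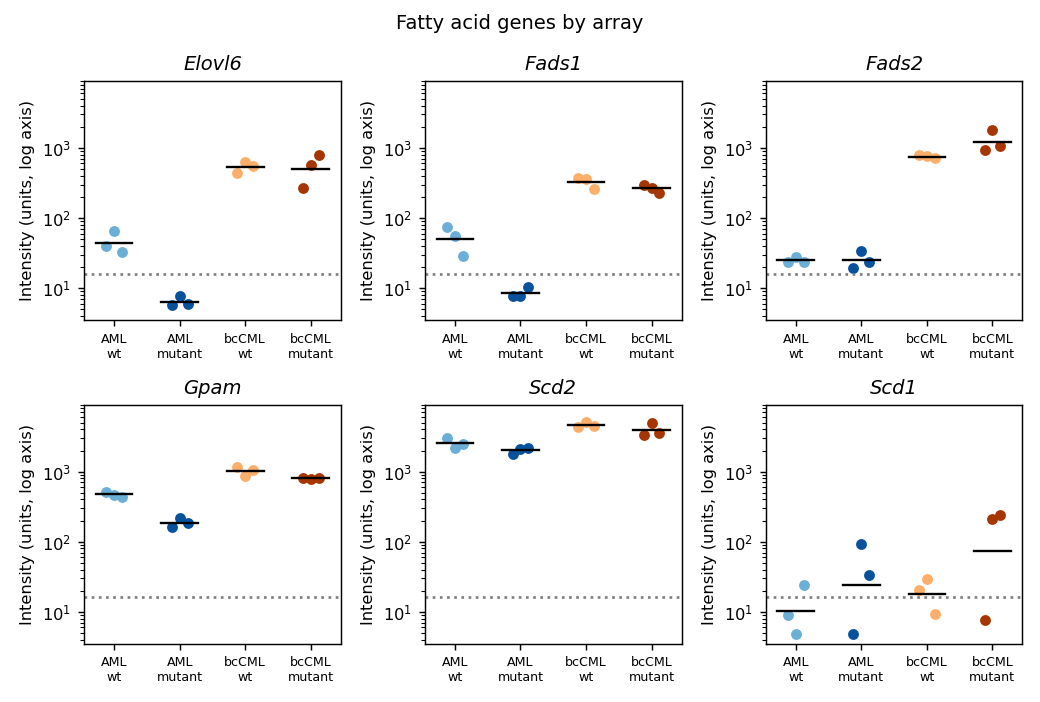
Intensity on every array (points, log axis) of 5 fatty acid enzymes and the acyltransferase gene Gpam in the 4 groups, with the mean of the log2 values as a bar and the filter level of 16 units as a dotted line. Elovl6 and Fads1 lie below the filter on all AML mutant arrays, Fads2 does not part mutant from wild-type in AML, and Scd1 scatters across the filter level in every group.

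The other fatty acid enzymes were not called in AML. Fasn, the fatty acid synthase that makes palmitate, measured 366, 628 and 331 units in wild-type and 350.4, 216 and 227 in mutant AML arrays. The groups overlapped through mutant array 1, and the difference was -0.72 ± 0.29 (limma adjusted p = 0.300), or -0.94 ± 0.30 without that array (0.167). Fads2, the delta-6 desaturase that precedes Fads1 in the same pathway, measured 23.6, 27.9 and 23.6 units in wild-type and 19.5, 34.1 and 23.6 in mutant arrays, a difference of 0.00 ± 0.27. Scd2, a stearoyl-CoA desaturase, measured 3036, 2165 and 2453 units in wild-type and 1798, 2093 and 2181 in mutant arrays, where only mutant array 3 entered the wild-type range (-0.32 ± 0.19, adjusted p = 0.510). Its relative Scd1 gave 9.08, 4.80 and 24.4 units in wild-type and 4.83, 91.6 and 33.0 in mutant arrays, so wide a scatter that the standard error of its difference was 1.39. Acly, ATP citrate lyase, stayed between 14629 and 15214 units on all 6 AML arrays, and Acaca, acetyl-CoA carboxylase, between 588 and 780.2. Over the 8 enzymes, 6 estimates were negative and the median was -0.20 (-0.16 without mutant array 1), where 57.1% of all tested genes were negative with a median of -0.05.

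None of the 17 sterol enzymes measured was called in AML, adjusted or at an unadjusted p below 0.05. Their estimates were negative for 13 of 17, with a median of -0.24 and a range from -0.68 (Hsd17b7) to 0.15 (Lss). That median turned on AML wild-type array 2, which was the highest wild-type array for 15 of the 17 enzymes, and without it the median was 0.02. Without mutant array 1 it was -0.22. Among the sterol genes the smallest p values were those of Dhcr7, Srebf2 and Mvk. Dhcr7, which makes cholesterol in the last step, measured 1577, 1622 and 1604 units in wild-type and 1470.5, 1264 and 1235 in mutant arrays. The groups did not overlap, yet the difference was small (-0.28 ± 0.14, limma adjusted p = 0.415). Mvk, mevalonate kinase, measured 79.0, 125 and 60.8 units in wild-type and 67.4, 65.2 and 51.1 in mutant arrays, with overlap (-0.47 ± 0.25, adjusted p = 0.438). Sqle, squalene epoxidase, a rate-limiting enzyme of the branch, measured 77.1, 104 and 72.7 units in wild-type and 57.9, 82.8 and 41.3 in mutant arrays, also with overlap (-0.52 ± 0.28, adjusted p = 0.459).

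In bcCML no member passed the threshold for the Msi2 mutant effect, where 0.139% of all tested genes (15) did. At an unadjusted p below 0.05 there were 2 members, Srebf1 and Fads2, among 900 such genes. Granulocyte markers summed to between 11877 and 36963 units in wild-type and between 3933 and 16687 in mutant bcCML, with 0 of 10 called by limma and 7 at an unadjusted p below 0.05, and their part was not tested. Srebf1 measured 398, 503 and 523 units in wild-type and 290.0, 286 and 368 in mutant bcCML arrays. Every mutant array lay below every wild-type array (-0.59 ± 0.19, limma adjusted p = 0.462). Fads2 went the other way, with 789, 761 and 708 units in wild-type and 919, 1829 and 1063 in mutant arrays. Here every mutant array lay above the wild-type range (0.69 ± 0.27, adjusted p = 0.553).

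The feedback protein Insig1, itself an SREBP target, measured 4082, 3359.9 and 4993 units in wild-type and 3203, 3217 and 3063 in mutant bcCML arrays. The mutant arrays were tightly grouped just below the wild-type range (-0.37 ± 0.23, limma adjusted p = 0.704). In AML Insig1 measured 2850.3, 3647 and 3270.2 units in wild-type and 2197, 4084 and 3186 in mutant arrays, and the mutant range enclosed the wild-type one (-0.08 ± 0.23). Srebf1 in AML measured 322, 288 and 379 units in wild-type and 331, 283 and 225 in mutant arrays, with overlap (-0.25 ± 0.19, adjusted p = 0.652). Srebf2 measured 787, 1046 and 630.2 units in wild-type and 984, 1125 and 978 in mutant AML arrays (0.35 ± 0.18, adjusted p = 0.419), and 1072, 1073 and 1223 in wild-type and 1223, 1227 and 1333 in mutant bcCML arrays (0.17 ± 0.18). The Srebf2 estimate was thus positive and the Srebf1 estimate negative in both leukaemias, and none of the 4 passed the threshold. Stard4, a carrier of cholesterol between membranes, measured 1114, 1338 and 1653 units in wild-type and 2231, 1568 and 1469 in mutant bcCML arrays, with overlap (0.35 ± 0.20, adjusted p = 0.677).

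The sterol enzymes had estimates above 0 in bcCML for 13 of 17, with a median of 0.21, where 45.9% of all tested genes were positive with a median of -0.02. Mvk measured 66.2, 70.6 and 71.1 units in wild-type and 90.8, 85.8 and 118 in mutant arrays. All mutant arrays exceeded the wild-type range (0.49 ± 0.25, limma adjusted p = 0.637). Tm7sf2, a sterol reductase, measured 135, 186 and 78.7 units in wild-type and 195, 249.7 and 208 in mutant arrays, again without overlap (0.79 ± 0.41, adjusted p = 0.655). Hmgcs1, which makes HMG-CoA, measured 4217, 5371 and 5442 units in wild-type and 4629, 5883 and 6953 in mutant arrays, which overlapped (0.21 ± 0.20). The arrays of this group differed as a whole. Mutant array 1 was the lowest mutant array for 14 of the 17 enzymes and wild-type array 1 the lowest wild-type array for 10. Leaving out 1 array at a time moved the median between 0.10 and 0.38, and no sterol gene was called in any of these fits. Same-numbered bcCML arrays deviated together across genes, so direction was also read within the 3 numbered pairs, a reading chosen after seeing the data. There 10 of 17 sterol enzymes (58.8%) were higher in the mutant in every pair and 1 lower, against 15.9% and 22.4% of all tested genes. The labels state no pairing, and the enzymes tended to move together by array. The 10 are therefore not separate observations, and the count was not tested. The 10 were Hmgcs1, Mvk, Mvd, Fdft1, Sqle, Lss, Tm7sf2, Msmo1, Nsdhl and Ebp, and the one lower was Fdps. Srebf2 was likewise higher, and Srebf1 and Insig1 lower, in all 3 pairs. With the number as a block, none was called.

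**Figure D3:**
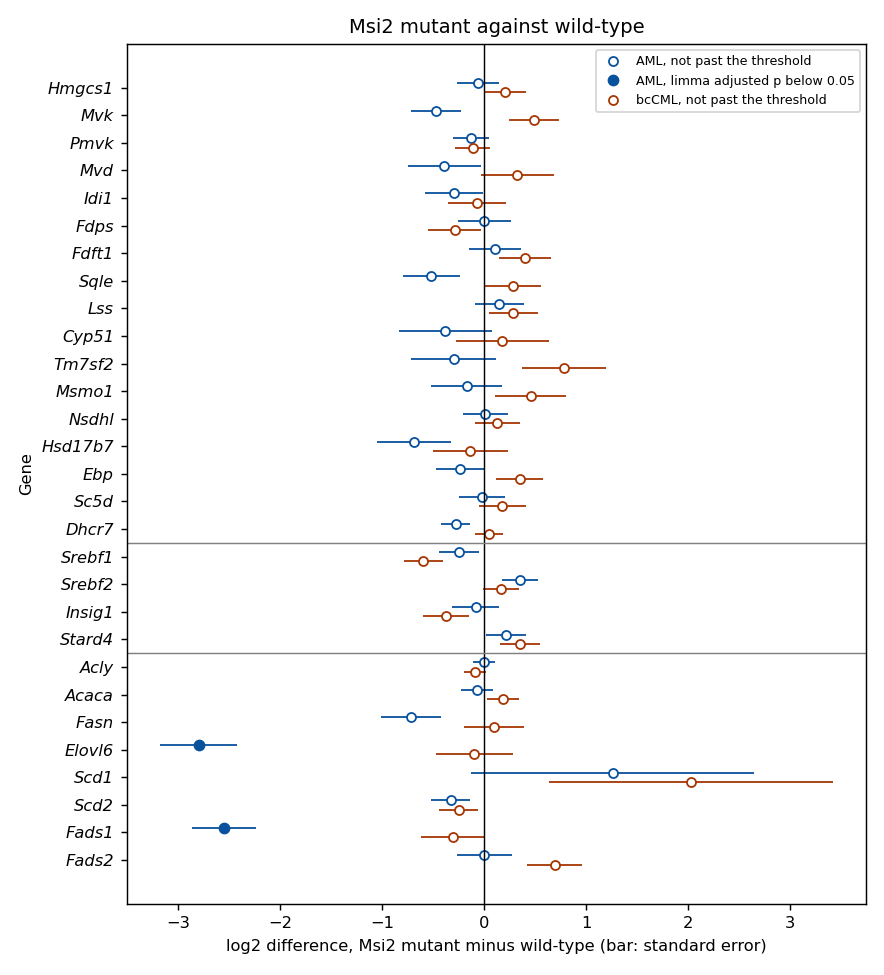
Log2 difference between Msi2 mutant and wild-type arrays for the 29 members in AML (blue) and bcCML (orange-brown), with standard errors. Filled points passed a limma adjusted p of 0.05. Only Elovl6 and Fads1 in AML are filled, and most sterol enzymes lie left of 0 in AML and right of 0 in bcCML, with none of them past the threshold.

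Whether the effect of the Msi2 mutation differed between the leukaemias was tested directly, as the bcCML difference minus the AML difference. No member was called, and none of the 10817 genes was by limma (0%; 1014 genes had an unadjusted p below 0.05, and the smallest limma adjusted p was 0.0514). Elovl6 (2.70 ± 0.54) and Fads1 (2.25 ± 0.44) had the 2 smallest p values among the members, both with an adjusted p of 0.117. These sizes rest on AML mutant arrays below the filter, so they are fitted values and not measured ones. The lower values of Elovl6 and Fads1 in AML are therefore not shown to be particular to AML. Mvk was the only other member with an unadjusted p below 0.05 (0.96 ± 0.35, adjusted p = 0.409). Over the sterol enzymes 16 of 17 estimates were positive, with a median of 0.33, where 53.5% of all tested genes were positive. That median was 0.17 with AML wild-type array 2 left out and 0.50 with bcCML mutant array 1 left out. With AML wild-type array 3 left out, Fads1 was called (2.63 ± 0.32, adjusted p = 0.0342), among 13 of the 10817 genes. With AML mutant array 1 left out no member and 2 genes were called, and the sterol median was 0.42.

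Averaged over both leukaemias, 1 member of 29 was called, where 0.471% of all genes tested were. It was Fads1, at -1.43 ± 0.22 (limma adjusted p = 0.0333), and Elovl6 lay just outside at -1.45 ± 0.27 (0.0515). Both values include the AML mutant arrays, which lay below the filter, and their sizes are fitted. Without AML mutant array 1 Fads1 was again the member called (-1.39 ± 0.24, adjusted p = 0.0424). The Fads1 call was lost under 12 of 23 other settings, over which its adjusted p ran from 0.00513 to 0.0959. It ended when any of the 6 bcCML arrays was left out, and when the first wild-type or the second mutant AML array was (adjusted p = 0.0591 and 0.0565), and with the replicate number as a block the adjusted p was 0.0503.

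The leukaemias themselves differed far more than mutant and wild-type did. In wild-type cells, 11 of 29 members were called between bcCML and AML, 8 higher and 3 lower in bcCML, where 36.9% of all tested genes were called, 17.7% higher and 19.3% lower. In mutant cells, on arrays that the wild-type comparison did not use, 16 were called, 14 higher and 2 lower, where 45.1% of all genes were called, 23.2% higher and 21.9% lower. The members' overall share was near the background in wild-type cells, while the calls lay mostly on the higher side in both. Of the 11 wild-type calls, 10 held in each of the alternative settings tried, the exception being Fdps, and of the 16 mutant calls 12 held, the exceptions being Mvk, Mvd, Sc5d and Dhcr7.

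Among fatty acid enzymes, 4 of 8 were called higher in wild-type bcCML and 5 of 8 in mutant bcCML, where 17.7% and 23.2% of all tested genes were. Their medians were 0.84 and 1.40, where the medians of all tested genes were 0.00 and 0.03. The mutant median was 2.29 without bcCML mutant array 1 and 0.96 without bcCML mutant array 2. Fads2 rose from between 23.6 and 27.9 units in wild-type AML to between 708 and 789 in wild-type bcCML, 4.91 ± 0.27 on the log2 scale (limma adjusted p = 4.01e-07). In mutant cells it was 5.60 ± 0.27 higher (adjusted p = 1.22e-07), and no AML array came near any bcCML array. The Elovl6 difference was 3.59 ± 0.38 in wild-type cells (adjusted p = 5.10e-05). In mutant cells, with all AML arrays below the filter, bcCML was at least 31.1-fold higher (fitted 6.29 ± 0.38, adjusted p = 6.78e-07). Fads1 was 2.72 ± 0.31 higher in wild-type cells (adjusted p = 9.49e-05) and at least 16.5-fold higher in mutant cells (fitted 4.97 ± 0.31, adjusted p = 9.84e-07).

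Scd2 measured 4286, 5185 and 4489.6 units in wild-type and 3335, 5009.8 and 3557 in mutant bcCML arrays, above every AML array. It was 0.88 ± 0.19 higher in wild-type cells (limma adjusted p = 0.00501) and 0.95 ± 0.19 in mutant cells (0.00246). Fasn measured 440.4, 575 and 695 units in wild-type and 482, 701 and 639 in mutant bcCML arrays. It was called in mutant cells (1.22 ± 0.29, adjusted p = 0.00692) and not in wild-type cells (0.40 ± 0.29, adjusted p = 0.314), where AML wild-type array 2 overlapped bcCML. Acly and Acaca, which supply acetyl-CoA and malonyl-CoA, were not called in either (Acly -0.10 ± 0.11 and -0.18 ± 0.11, Acaca -0.18 ± 0.16 and 0.08 ± 0.16). Scd1 gave 20.7, 29.1 and 9.42 units in wild-type and 7.65, 208 and 243 in mutant bcCML arrays, which spanned the filter level, and was not called.

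Among sterol enzymes, 3 were higher and 3 lower in wild-type bcCML, and 8 higher and 2 lower in mutant bcCML, of 17, where 36.9% and 45.1% of all tested genes were called. Of all tested genes 17.7% were higher and 19.3% lower in wild-type bcCML, and 23.2% and 21.9% in mutant bcCML. Only the share of sterol enzymes higher in mutant bcCML was above these. The medians of the sterol enzymes were 0.20 and 0.47. The wild-type median was 0.34 with AML wild-type array 2 left out and 0.31 with the first bcCML wild-type array left out, and the mutant median 0.73 without AML mutant array 1. Idi1, the isomerase that makes dimethylallyl diphosphate, measured 2830.2, 1811 and 2454 units in wild-type and 2236, 1956 and 2490.3 in mutant bcCML arrays, against 449, 811 and 356 in wild-type and 372, 413 and 458 in mutant AML arrays. Every bcCML array exceeded every AML array (2.20 ± 0.28 in wild-type cells, limma adjusted p = 0.000198, and 2.42 ± 0.28 in mutant cells, 7.61e-05). Lss, which closes the sterol rings to form lanosterol, measured 242, 294 and 259 units in wild-type and 281, 358 and 332 in mutant bcCML arrays, against 57.6 to 118 over the 6 AML arrays. It was 1.96 ± 0.24 and 2.09 ± 0.24 higher (adjusted p = 0.000140 and 6.63e-05). Sqle measured 162, 249.7 and 223 units in wild-type and 217, 318 and 234 in mutant bcCML arrays, above all AML arrays (1.32 ± 0.28, adjusted p = 0.00436, and 2.12 ± 0.28, 0.000173).

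Cyp51, the lanosterol demethylase, measured 145, 281 and 105 units in wild-type and 95.3, 214 and 94.6 in mutant AML arrays. In bcCML it measured 327, 510.1 and 356 units in wild-type and 279, 671 and 459 in mutant arrays, so bcCML was the higher leukaemia in both genotypes without overlap. It was called in mutant cells (1.82 ± 0.46, limma adjusted p = 0.00835) and just missed the threshold in wild-type cells (1.27 ± 0.46, 0.0515). A dimmer Cyp51 probe set passed in both, at 1.81 ± 0.35 (adjusted p = 0.00195 among all probe sets) and 2.09 ± 0.35 (0.00110). For the bcCML mutant effect the dimmer probe set gave -0.49 ± 0.35 (0.747) and the chosen one 0.18 ± 0.46. Msmo1, which removes methyl groups from the sterol ring, measured 192, 212 and 169 units in wild-type and 117, 258 and 160.3 in mutant AML arrays, and 189, 427 and 349 in wild-type and 325, 434 and 518 in mutant bcCML arrays. Its groups overlapped in wild-type cells (0.68 ± 0.35, adjusted p = 0.157) and not in mutant cells (1.31 ± 0.35, adjusted p = 0.0115).

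Mvd, which decarboxylates mevalonate diphosphate, measured 37.6, 90.7 and 45.8 units in wild-type and 49.1, 49.9 and 28.2 in mutant AML arrays. In bcCML it measured 60.1, 81.5 and 75.3 units in wild-type and 64.8, 95.1 and 117 in mutant arrays. Only the mutant groups were free of overlap, and only there was it called (1.13 ± 0.36, limma adjusted p = 0.0260). Mvk (0.68 ± 0.25, adjusted p = 0.0458) and Dhcr7 (0.39 ± 0.14, 0.0430) were also called in mutant cells alone. The difference between the genotypes, which is the same quantity as the interaction above, passed for none of these genes. Dhcr7 measured 1622, 1561 and 1835 units in wild-type and 1782, 1488 and 1945 in mutant bcCML arrays, so its call came with a range that began just above the highest AML mutant array.

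A smaller set of sterol enzymes was lower in bcCML, 3 of 17 in wild-type and 2 of 17 in mutant cells. These shares were not above the 19.3% and 21.9% of all tested genes called lower. Fdps, which makes farnesyl diphosphate, measured 1021, 1280.5 and 707 units in wild-type and 922, 946 and 1069 in mutant AML arrays, and 513, 690.3 and 463 in wild-type and 340.0, 573 and 462 in mutant bcCML arrays. No bcCML array reached the lowest AML array (-0.83 ± 0.26, limma adjusted p = 0.0282, in wild-type cells and -1.12 ± 0.26, 0.00530, in mutant cells). Sc5d, the lathosterol desaturase, measured 233, 343 and 192 units in wild-type and 247, 259 and 229 in mutant AML arrays, and 137, 127 and 149 in wild-type and 120.3, 166 and 189 in mutant bcCML arrays. It too was lower in both genotypes without overlap (-0.86 ± 0.23, adjusted p = 0.0135, and -0.65 ± 0.23, 0.0374). Ebp, a sterol isomerase, measured 1777, 1748 and 1268 units in wild-type and 1339, 1321 and 1359 in mutant AML arrays, and 604, 1074 and 741 in wild-type and 792, 1122 and 1117 in mutant bcCML arrays. It was called lower in wild-type cells (-1.01 ± 0.23, adjusted p = 0.00665) and not in mutant cells (-0.43 ± 0.23, 0.162).

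The remaining sterol enzymes, Hmgcs1, Pmvk, Fdft1, Tm7sf2, Nsdhl and Hsd17b7, were called between the leukaemias in neither genotype. Hmgcs1 measured 3779, 4949 and 4401 units in wild-type and 5171, 3835 and 3682 in mutant AML arrays, within reach of its bcCML values (0.19 ± 0.20 and 0.46 ± 0.20, limma adjusted p = 0.491 and 0.0914). Its dimmer probe sets differed in mutant cells. They gave 0.68 ± 0.21 (adjusted p = 0.0218 among all probe sets), 0.88 ± 0.25 (0.0161), 0.41 ± 0.16 (0.0633) and -0.12 ± 0.14 (0.533). Tm7sf2 was the most scattered, with 187, 334 and 116 units in wild-type and 228, 124 and 137 in mutant AML arrays (-0.62 ± 0.41 and 0.46 ± 0.41). Over all 12 arrays Pmvk, phosphomevalonate kinase, ran from 253 to 409.8 units, Fdft1, squalene synthase, from 292 to 748, Nsdhl from 105 to 193 and Hsd17b7 from 55.5 to 187.

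Of the 4 regulators and carriers only Stard4 was called. It measured 433, 454 and 398 units in wild-type and 488, 452 and 555 in mutant AML arrays, all below every bcCML array. The difference was 1.66 ± 0.20 in wild-type cells (limma adjusted p = 0.000111) and 1.80 ± 0.20 in mutant cells (4.83e-05). In wild-type cells Srebf1 (0.52 ± 0.19, adjusted p = 0.0546) and Srebf2 (0.48 ± 0.18, 0.0568) lay just outside the threshold, and Insig1 was 0.34 ± 0.23 higher (0.276). Granulocyte markers were called lower in bcCML for 8 of 10 in wild-type cells and 10 of 10 in mutant cells, where 19.3% and 21.9% of all tested genes were. The sort, the oncogenes, these markers and the erythroid, megakaryocyte and monocyte markers given above moved with all of these comparisons, and their part was not tested. Without AML mutant array 1, 17 members were called between the mutant groups, 16 higher and 1 lower, in a fit that called 4689 of the 10817 genes, 53% of them higher. Mvk (adjusted p = 0.0564) and Sc5d (0.0737) were then no longer called, and Hmgcs1, Fdft1 and Nsdhl were.

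**Figure D4:**
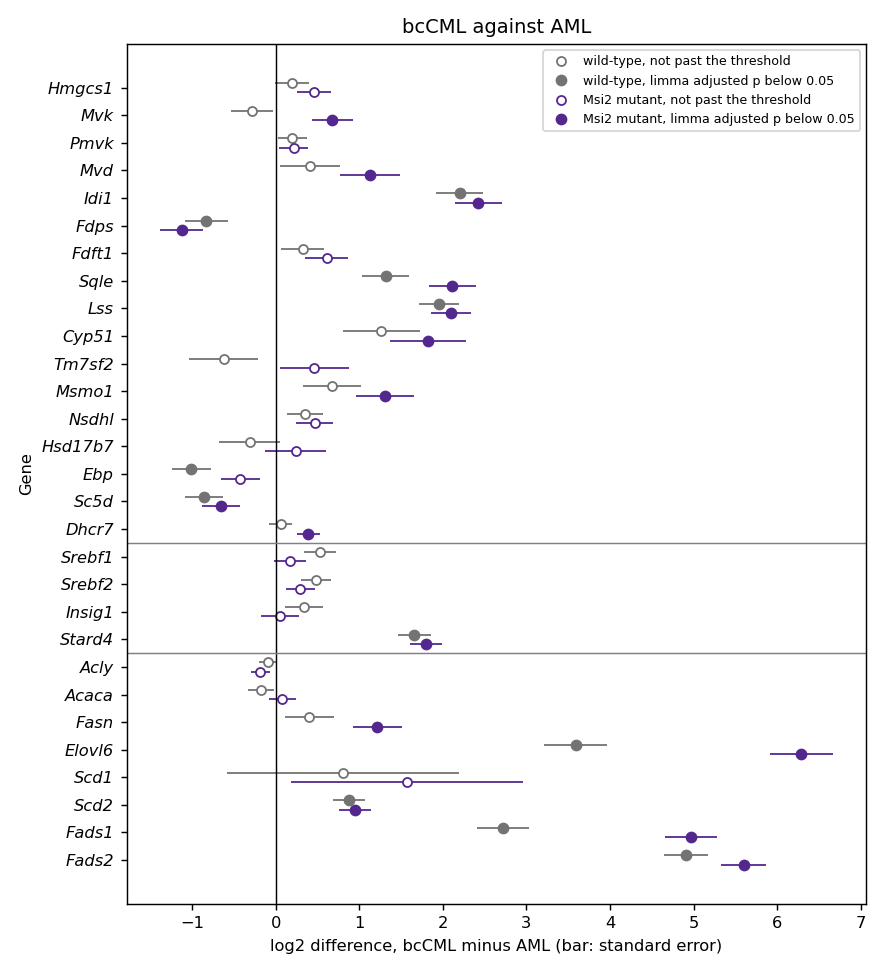
Log2 difference between bcCML and AML for the 29 members in wild-type (grey) and Msi2 mutant (purple) cells, with standard errors. Filled points passed a limma adjusted p of 0.05. Fads2, Elovl6 and Fads1 are farthest to the right in both genotypes, Idi1, Sqle, Lss, Stard4 and Scd2 are also filled on the right in both, and Fdps and Sc5d lie left of 0 in both.

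Genes around the pathway were taken from lists of companions. For the mutant effect the only companion called was Gpam, a mitochondrial acyltransferase that starts glycerolipid synthesis, 1 of 16 lipid assembly genes. Gpam measured 512, 468 and 439 units in wild-type and 161, 218 and 184 in mutant AML arrays. The groups were far apart relative to their spread (-1.34 ± 0.16, limma adjusted p = 0.00499, and 0.124 when only the 6 AML arrays were fitted). In bcCML Gpam measured 1177, 871 and 1065 units in wild-type and 815, 779 and 802 in mutant arrays, also without overlap and not called (-0.37 ± 0.16, adjusted p = 0.574). The mean of both differences was called (-0.85 ± 0.11, adjusted p = 0.0187), though not with array 1 of the AML wild-type group left out, nor array 1 or 3 of the bcCML wild-type group (highest adjusted p 0.0626).

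No other companion passed in AML, in bcCML, in the mean of both or in the interaction. The smallest p values per list in AML were those of the lipoprotein receptor Vldlr (-1.35 ± 0.43, limma adjusted p = 0.175, 1 of 7 uptake genes), Osbp (-0.56 ± 0.15, 0.109, of 9 efflux and storage genes), Rce1 (-0.68 ± 0.24, 0.226, of 12 genes that use mevalonate for prenylation, dolichol or ubiquinone), the elongase Elovl5 (0.39 ± 0.13, 0.190, of 20 other fatty acid genes), Hadhb (-0.39 ± 0.14, 0.227, of 19 oxidation genes), Tkt (0.25 ± 0.14, 0.461, of 5 NADPH genes), Mbtps2 (-0.32 ± 0.19, 0.504, of 6 SREBP processing genes) and Acat1 (-0.29 ± 0.19, 0.570, of 4 other sterol genes). In bcCML the corresponding genes were Lrp8 (-0.36 ± 0.25, 0.762), Mylip (-1.32 ± 0.29, 0.193), Ggps1 (-0.54 ± 0.23, 0.578), Hacd2 (-0.50 ± 0.24, 0.619), Acaa2 (-0.30 ± 0.21, 0.768), Idh1 (0.34 ± 0.26, 0.789), Mbtps2 (-0.60 ± 0.19, 0.422), Idi2 (-0.60 ± 0.77, 0.907) and, for lipid assembly, Pnpla2 (-0.58 ± 0.15, 0.275). Abca1, the cholesterol efflux pump, measured 50.1, 12.1 and 54.3 units in wild-type and 16.4, 20.3 and 57.0 in mutant AML arrays, and 109, 63.2 and 78.3 in wild-type and 59.6, 86.8 and 31.2 in mutant bcCML arrays. It overlapped in both leukaemias (-0.26 ± 0.65 and -0.58 ± 0.65), and it was not called between them (1.35 ± 0.65, adjusted p = 0.131, in wild-type cells and 1.03 ± 0.65, 0.222, in mutant cells). In the mean of both differences the smallest p of each list without a call belonged to Mbtps2 (-0.46 ± 0.13, adjusted p = 0.154), Mylip (-0.62 ± 0.21, 0.219), Ggps1 (-0.43 ± 0.16, 0.271), Hadhb (-0.24 ± 0.10, 0.314), Elovl7 (-1.04 ± 0.48, 0.373), Vldlr (-0.41 ± 0.30, 0.595), Acat1 (-0.17 ± 0.13, 0.631) and Idh1 (0.22 ± 0.18, 0.656). In the interaction it belonged to Gpam (0.97 ± 0.22, 0.161), Mylip (-1.40 ± 0.41, 0.319), Vldlr (1.88 ± 0.60, 0.369), Hacd2 (-1.03 ± 0.34, 0.371), Dhdds (1.11 ± 0.48, 0.507), Acadvl (0.52 ± 0.25, 0.568), Tkt (-0.34 ± 0.19, 0.634), Mbtps2 (-0.28 ± 0.27, 0.781) and Acat1 (0.24 ± 0.27, 0.819).

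Between the leukaemias the companions moved in both directions. Of 20 other fatty acid genes, 7 were called higher and 4 lower in wild-type bcCML, where 17.7% and 19.3% of all tested genes were. Acss2, which makes acetyl-CoA from acetate, measured 174, 172 and 169 units in wild-type AML and 1512, 2292 and 1545 in wild-type bcCML (3.35 ± 0.35, limma adjusted p = 5.08e-05, and 3.98 ± 0.35 in mutant cells, 1.13e-05). Me1, the malic enzyme that yields NADPH, was below the filter on all AML arrays and at least 5.66-fold higher in wild-type bcCML (adjusted p = 0.000226). Me1 passed the filter only through bcCML arrays, so its direction was largely fixed by the filter. Acsl3, an acyl-CoA synthetase, was 2.28 ± 0.41 higher (0.00158), while Mlx, a partner of the carbohydrate response factor, was lower (-1.09 ± 0.20, 0.00177).

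Of 5 NADPH genes, 3 were called lower in wild-type and 4 in mutant bcCML and none higher, where 19.3% and 21.9% of all tested genes were called lower. Me1, which was higher, is counted with the other fatty acid genes, and G6pdx was not analysed here. Pgd, of the pentose phosphate pathway, was called in both (-1.90 ± 0.19, limma adjusted p = 3.11e-05, and -2.13 ± 0.19, 1.03e-05), as were Taldo1 (-0.96 ± 0.17 in wild-type cells, 0.00128) and Idh1 (-1.64 ± 0.26, 0.000800). Of 16 lipid assembly genes, 1 was higher and 5 lower in wild-type bcCML. Those lower included the lipid droplet proteins Plin3 (-3.65 ± 0.31, adjusted p = 1.00e-05) and Plin2 (-2.60 ± 0.29, 7.06e-05), and Dgat1 (-2.18 ± 0.38, 0.00146), which makes triglyceride, while Gpam was the one higher (1.13 ± 0.16, 0.000316). Of 7 uptake genes 3 were lower, Lrp1 most clearly (-3.97 ± 0.57, 0.000399), with Scarb1 (-0.999 ± 0.34, 0.0413) and Npc2 (-0.45 ± 0.15, 0.0410).

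Of 9 efflux and storage genes 5 were lower, among them Nceh1 (-0.74 ± 0.14, limma adjusted p = 0.00183), Mylip (-1.29 ± 0.29, 0.00632), which targets lipoprotein receptors for degradation, Stard3 (-0.74 ± 0.19, 0.0105) and Apoe (-2.08 ± 0.62, 0.0235). Of 6 SREBP processing genes 2 were higher, Scap, the SREBP escort (0.47 ± 0.14, 0.0244), and the protease gene Mbtps2 (0.68 ± 0.19, 0.0170). Of 19 oxidation genes 3 were higher, Cpt1c, below the filter on all AML arrays and at least 5.78-fold higher (6.54e-05), Hadhb (0.62 ± 0.14, 0.00563) and Decr1 (1.10 ± 0.29, 0.0144). Cpt1c passed the filter only through bcCML arrays, so its direction was largely fixed by the filter. Of 12 mevalonate outflow genes 1 was lower, Rabggta (-1.08 ± 0.18, 0.00123), and of 4 other sterol genes 1, Lbr (-0.41 ± 0.13, 0.0343). Of all tested genes 17.7% were called higher and 19.3% lower, so the shares of the oxidation and mevalonate outflow lists were not above the background. Monocyte and macrophage markers, lower in wild-type bcCML for 9 of 12 and higher for 1, and granulocyte markers, lower for 8 of 10, moved with the lower lists. Csf1r, Cd14, Mpeg1 and Ms4a6c passed the filter only through AML arrays, and Fcgr1, the one higher, only through bcCML arrays. The direction of these genes was thus largely fixed by the filter. The part of the monocyte, macrophage and granulocyte markers was not tested.

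In mutant cells the same lists gave 7 higher and 4 lower of 20 other fatty acid genes, where 23.2% and 21.9% of all tested genes were called higher and lower. Those with the smallest p were Acss2 (given above), Mid1ip1, which helps polymerise acetyl-CoA carboxylase (-1.42 ± 0.17, limma adjusted p = 9.35e-05), Hacd2, a dehydratase of fatty acid elongation (-1.82 ± 0.24, 0.000167), and Me1, at least 4.44-fold higher in bcCML (0.000303). The direction of Me1 was again largely fixed by the filter. The NADPH gene Tkt joined Pgd, Idh1 (-1.39 ± 0.26, 0.00169) and Taldo1 (-0.86 ± 0.17, 0.00186) on the lower side (-0.67 ± 0.14, 0.00260). Of 16 lipid assembly genes 3 were higher and 8 lower, among them Plin3, below the filter on every mutant bcCML array and at least 26.5-fold lower (8.13e-07), Plin2 (-2.92 ± 0.29, 2.30e-05), the triglyceride enzyme Dgat2 (-3.95 ± 0.50, 0.000137) and, higher, Gpam (2.10 ± 0.16, 3.27e-06).

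Uptake genes in mutant cells went both ways, with Lrp1 (-6.11 ± 0.57, limma adjusted p = 1.60e-05) and Scarb1 (-1.20 ± 0.34, 0.0154) lower and Vldlr higher (1.31 ± 0.43, 0.0298). Mylip (-2.69 ± 0.29, 4.73e-05), Nceh1 (-0.99 ± 0.14, 0.000226) and Stard3 (-0.85 ± 0.19, 0.00394) were the 3 efflux and storage genes called. Of 19 oxidation genes 5 were called higher, a share near the 23.2% of all tested genes. Among the 5 were Cpt1c, at least 6.49-fold higher (3.73e-05), Hadhb (0.92 ± 0.14, 0.000404), Acadvl (0.87 ± 0.18, 0.00289) and Etfdh (0.77 ± 0.19, 0.00686). The direction of Cpt1c was again largely fixed by the filter. Of 12 mevalonate outflow genes 5 were called, including the prenyltransferase subunits Rabggtb (1.18 ± 0.29, 0.00767), Rabggta (-0.71 ± 0.18, 0.00994) and Fntb (1.09 ± 0.34, 0.0249) and the protease Rce1 (0.77 ± 0.24, 0.0240). Scap (0.56 ± 0.14, 0.00854) was the SREBP processing gene called, and Erg28 (0.80 ± 0.23, 0.0150) and Lbr (-0.40 ± 0.13, 0.0310) the other sterol genes. Of all tested genes 45.1% were called in either direction. The shares called of 7 uptake, 9 efflux and storage, 12 mevalonate outflow and 6 SREBP processing genes were not above that.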

How the data were processed

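RNA was measured on 12 Affymetrix mouse arrays, 3 for each of 4 groups, which the titles call biological replicates. Each probe set has 1 deposited intensity on a linear scale. Per the submitters' processing notes the authors used GCRMA, for which a version and settings are not given in the sources used here. That method corrects background by probe sequence, so dim probe sets sit on a floor (4.49 units) and changes there are only partly measured. Depth does not apply to arrays, and 3 arrays a group limit the precision.

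From these values log2 was taken with no pseudocount. Of 45037 probe sets, 34945 had 1 gene symbol and were used, 932 had several and 9160 were not listed. After the filter, 10817 genes entered the limma fit (limma 3.58.1, R 4.3.3; group means over all 12 arrays, 8 residual and 2.19 prior degrees of freedom). Tests were two-sided, with Benjamini-Hochberg adjustment over all genes and a threshold of 0.05. The fit was tested on simulated data. The 6 contrasts were the mutant effect in AML, in bcCML, their mean and their difference, and bcCML minus AML in each genotype. A ratio is given as a bound where no array of a group reached 16 units.

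Same-numbered mutant and wild-type arrays deviated together in bcCML (correlations of 0.396, 0.364 and 0.278) and not in AML (-0.055, -0.121 and -0.030). Same-numbered wild-type arrays of the 2 different leukaemias gave 0.016, 0.235 and 0.111, and mutant ones 0.036, -0.024 and -0.076. On the bcCML correlations alone, with no stated design behind them, the numbers were taken to pair the bcCML arrays. The members, companion lists, markers and the rule for naming genes were chosen with earlier results of these data known. By that rule all members are accounted for. A member has its arrays given where it passed in a contrast or had 1 of the 3 smallest p values of the sterol members, or of the 2 smallest of the fatty acid members, in a contrast, as do Srebf1, Srebf2, Insig1 and Hmgcs1. Companions past the threshold are named up to 4 a list and contrast, or else the smallest p. Sequences are RefSeq's. The alternatives were other filters, probe set rules, offsets, normalisations, blocks, priors, array weights, the compared arrays alone and leaving out each array.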

Additional observations from a re-analysis of the deposited data

How the results depend on the processing

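No result changed direction past its threshold. The 2 calls in AML became 1 with 16 units added before log2 and 0 with the compared arrays alone, and stayed 2 with any 1 array left out. The single call in the mean of both differences became 0 with no filter, with the mean over a gene's probe sets, with 16 units added and with a replicate block. It became 2 with trend and robust priors and with a block within bcCML over all 12 arrays, 3 with array weights, and 0 to 2 with 1 array left out. The interaction gave 2 calls with array weights and 0 to 1 with 1 array left out. Wild-type bcCML against AML gave 21 with array weights (6122 of 10817 genes) and 10 to 12 with 1 array left out, and the mutant comparison 12 to 18 over all settings. With the replicate number as a block, bcCML gave 0 members, as it did with the bcCML arrays alone (no gene called) and with the block within bcCML (42 genes in place of 15). Apart from the mean of both differences, no block changed a count of members by over 1.5 times. The 2 blocks restricted to bcCML were chosen after seeing the data. Over all settings the genes called among all tested ran from 0 to 1053 in AML (164 as reported; 43 without the first wild-type array and 71 without the third bcCML wild-type array), from 0 to 71 in bcCML (15), from 4 to 750 in the mean of both (51), from 0 to 126 in the interaction (0) and from 3137 to 6122 in wild-type bcCML against AML (3996) and from 4003 to 5380 in the mutant comparison (4875), leaving aside the setting that counts probe sets. Intensities near 16 units are limited by the background correction.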
